A study of Mus musculus with 8 samples.

Results

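Muscle ubiquitin ligases are the enzymes that mark proteins of heart and skeletal muscle for removal, and 10 of their genes were followed here in mouse ventricle: Trim63, Trim54, Trim55, Fbxo32, Fbxo40, Asb2, Cbl, Mdm2, Nedd4l and Rnf207. The members were given as a list of gene names with no cut on a measured value, but the list was chosen with earlier results of these data known. All 10 were found among the 38293 genes of the count table and among the 14567 that passed the filter on low counts. Poly(A) RNA of 4 libraries from mice heterozygous for a Pkp2 deletion (HET, c.1755delA on 1 allele) was compared with that of 4 wild-type libraries (WT, both Pkp2 alleles intact), all from a mix of left and right ventricle at 8 weeks of age. Neither a strain nor an added agent is named in the labels, and the deposited file is named for the loss of a C, where the title has an A. Per its title, the series concerns the breakdown of desmosomal proteins in arrhythmogenic cardiomyopathy. Separate animals are not stated, so every p-value measures the spread between libraries only.

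A ubiquitin ligase, or E3, brings a charged E2 enzyme to a chosen protein, which is then tagged with ubiquitin and in many cases broken down by the proteasome. In striated muscle Trim63 (MuRF1) and Fbxo32 (atrogin-1) are the ligases best known for rising when muscle wastes, under the control of FoxO factors and glucocorticoids. Other members act on signalling proteins, on ion channels or on the proteins that anchor the sarcomere.

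Promoter sequence is shown for the best studied of these genes, Trim63, for Asb2, the single member whose 2 groups did not overlap, and for Fbxo40, whose WT libraries spread widely. Each run is the 250 bases upstream of a RefSeq start site on GRCm38.p6, 5′ to 3′ on the gene's strand. Asb2 and Fbxo40 have 2 such start sites each, and the run shown is that of the outer one, where the annotated gene begins. RefSeq promoter entries matched 6 of the 10 members. Capitals in Trim63 (chr4:134314870-134315119, plus strand) mark a steroid receptor hexamer (AGAACA or its complement), a FoxO core (GTAAACA or its complement) and a TATA box (TATAAA). Capitals in Asb2 (chr12:103356002-103356251, minus strand) and in Fbxo40 (chr16:36990468-36990717, minus strand) mark E-boxes (CANNTG).
Trim63: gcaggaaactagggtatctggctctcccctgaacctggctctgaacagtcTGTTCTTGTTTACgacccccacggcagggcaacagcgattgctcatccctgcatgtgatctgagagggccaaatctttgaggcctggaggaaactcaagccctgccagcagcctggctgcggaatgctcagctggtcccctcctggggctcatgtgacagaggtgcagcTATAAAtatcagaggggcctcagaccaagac
Asb2: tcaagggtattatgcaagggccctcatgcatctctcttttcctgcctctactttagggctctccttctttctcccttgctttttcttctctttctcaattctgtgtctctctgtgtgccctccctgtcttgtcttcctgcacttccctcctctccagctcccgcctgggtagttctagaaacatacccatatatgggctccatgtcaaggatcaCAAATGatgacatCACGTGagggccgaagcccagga
Fbxo40: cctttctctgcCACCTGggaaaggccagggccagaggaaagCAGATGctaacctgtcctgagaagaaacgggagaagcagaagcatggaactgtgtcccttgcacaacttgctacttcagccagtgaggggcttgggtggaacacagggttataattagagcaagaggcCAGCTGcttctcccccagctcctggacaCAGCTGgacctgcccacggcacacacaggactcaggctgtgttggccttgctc
In Trim63 the hexamer lies 200 to 195 bases before the start and the FoxO core directly after it, 194 to 188 bases before the start, and the 2 do not overlap. Both strands were searched. Of 32817 mouse promoters of the same length, 3.16% hold a FoxO core, 16.1% a hexamer, 12.4% a TATA box and 66.2% an E-box. A FoxO core and a hexamer that start within 10 bases of each other, a spacing chosen after the Trim63 sequence was seen, occur in 14 of them (0.0427%). The matches are letters in a window and not measured binding sites. Trim63 also holds 3 E-boxes, which are left in lower case. The window before the other Fbxo40 start site, not shown, holds a hexamer 176 to 171 bases before that start and 2 E-boxes, and that before the other Asb2 start site holds none of these motifs.

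Levels per length spanned a wide range. On the RPKM scale (counts scaled to library size and divided by exon length, here the union of all exons) Asb2 had the highest median over the 8 libraries, 186.1, and Trim54 followed at 171.8. Trim63 stood at 85.75, Fbxo40 at 66.54, Fbxo32 at 28.27, Trim55 at 24.14 and Rnf207 at 21.94. Mdm2 (11.43) and Nedd4l (2.13) were lower, and Cbl was last at 0.113. The annotation used for the counting is not given in the sources used here, so whether reads of Cbl were lost or assigned elsewhere was not tested, and its level, its rank and its ratio to Cblb carry that limit. The ranges of Asb2 and Trim54 overlapped, as did those of Fbxo32 with Trim55 and of Trim55 with Rnf207, while every other pair of neighbours in this order was apart in all 8 libraries. With the longest transcript as length, Rnf207 moved above Fbxo32 (38.82 against 28.27), Asb2 and Trim54 no longer overlapped and Trim63 and Trim54 did, so the order of these neighbours depends on the gene model. Among all genes tested Asb2 ranked 188 by RPKM and Cbl 13646.

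**Figure D1:**
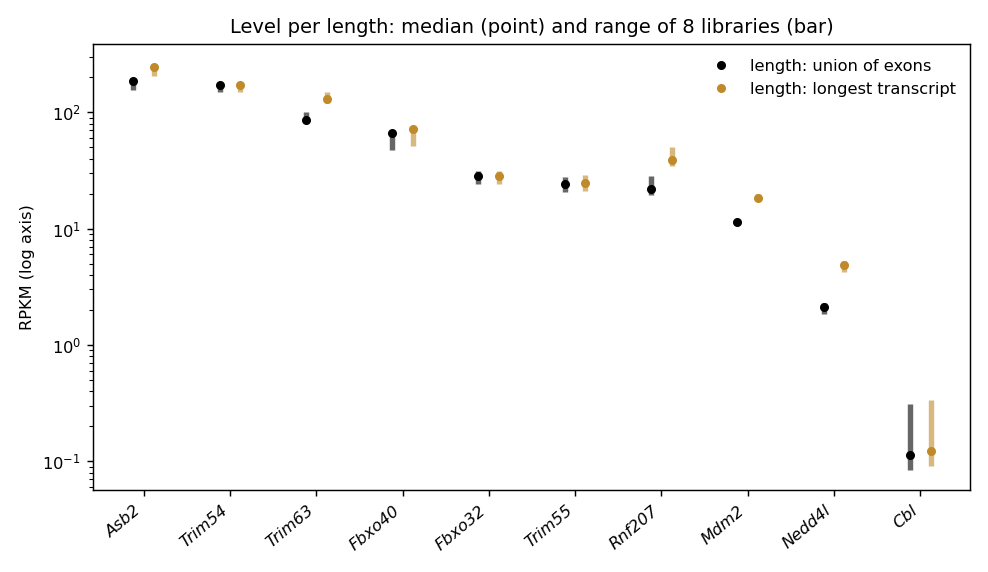
Level of each ligase gene in RPKM on a log axis; points are medians and bars the range over the 8 libraries, in black for the union of exons and in gold for the longest transcript. Asb2 and Trim54 lead at 186.1 and 171.8, and Cbl lies at 0.113, below every other member.

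No ligase gene passed the test between HET and WT. With edgeR's quasi-likelihood fit and p-values adjusted (Benjamini-Hochberg) over the 14567 genes, 0 of the 10 members were called in either direction, where 0.00686% of all genes tested, 1 gene in all, was called. At an unadjusted p under 0.05 there was 1 member with the higher mean in HET (Asb2, where 2.75% of all genes are found) and 1 with the lower mean (Cbl, where 3.63% are found). DESeq2 called 0 members too, with 2 at its unadjusted p under 0.05, and limma-voom 0 with 4. The log2 fold change was above 0 in 8 of the 10 members, against 48.5% of all genes, with a median of 0.08 against -0.00. With library size as the only scaling 7 of 10 were above 0, against 32.7% of all genes, and the median was 0.03 against -0.05. The gene called was Pkp2 itself, the plakophilin of the desmosome. It stood at 99.2, 88.2, 96.0 and 105.6 CPM (counts divided by the TMM-scaled library size) in HET replicates 1 to 4 and at 169.1, 167.6, 148.5 and 165.7 CPM in WT (adjusted p = 0.00376 by edgeR). Library totals were 32397302 to 41234883 counts.

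**Figure D2:**
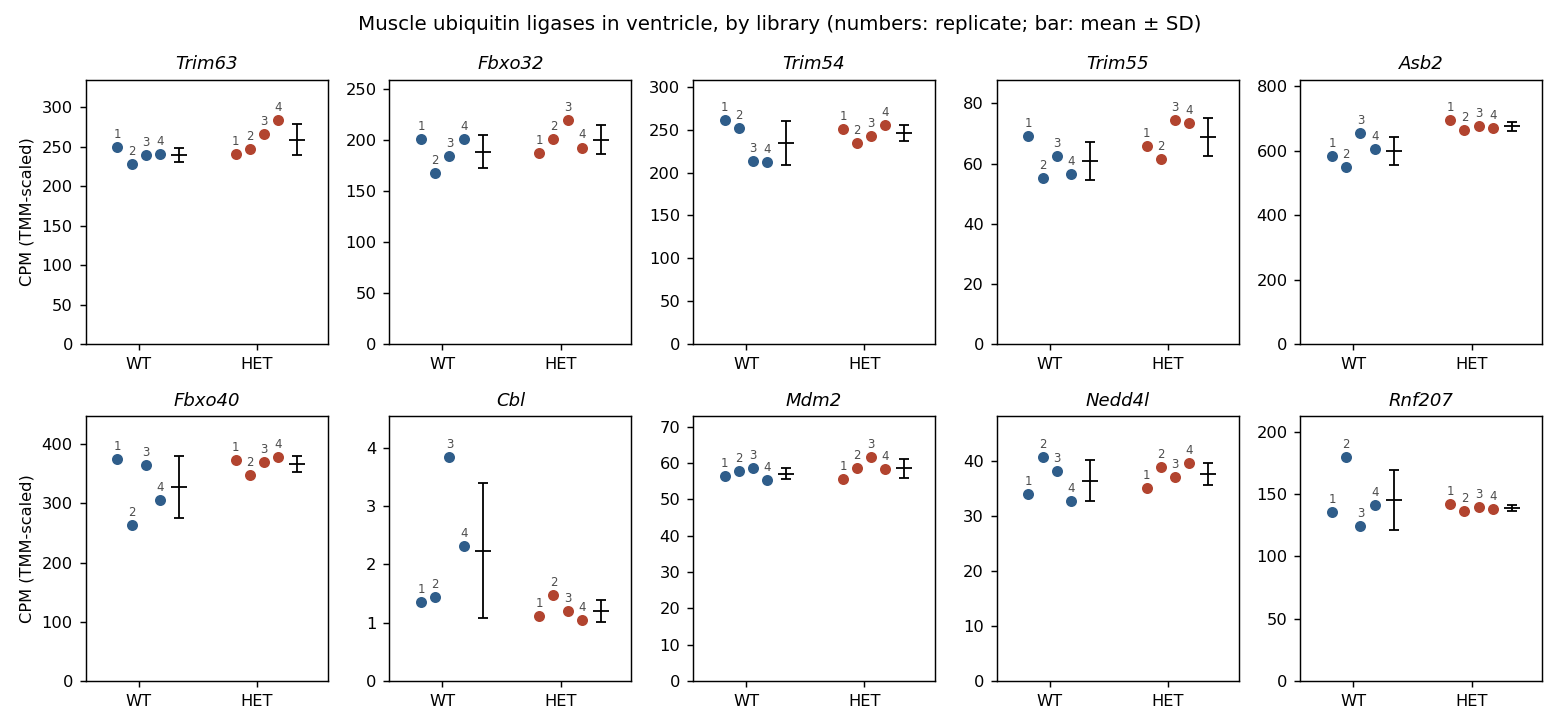
CPM of the 10 ligase genes in each library, WT in blue and HET in red, with the replicate number over each point and the mean ± SD (n = 4) beside it; each axis starts at 0. For Asb2 the HET points (662.6 to 694.8 CPM) lie above the WT points (550.5 to 655.4 CPM), and the other 9 members overlap.

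Asb2 encodes the substrate receptor of a cullin-5 ligase that targets filamins. It was at 694.8, 662.6, 676.6 and 670.3 CPM in HET replicates 1 to 4 and at 584.8, 550.5, 655.4 and 606.0 CPM in WT replicates 1 to 4. Every HET library was above every WT library, by a narrow margin over WT replicate 3, and Asb2 was the single member without overlap (1.7% of all genes tested did not overlap with HET higher), and 0 members did not overlap with HET lower (2.08% of all genes). Mean levels were 676.1 ± 13.7 in HET and 599.2 ± 43.9 CPM in WT (SD, n = 4), 1.13-fold (log2 fold change 0.17, SE 0.0553, 95% interval 0.05 to 0.30). The unadjusted p was 0.0095 and the adjusted p 0.770 (edgeR), and over 15 alternatives the adjusted p ran from 0.380 to 0.994 with log2 fold changes of 0.13 to 0.22.

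The 6 cardiomyocyte markers were also higher on average in HET. Their summed level was 66080 to 69820 CPM in HET and 61480 to 65730 CPM in WT, 5 of 6 had a positive log2 fold change (median 0.09), and none of them was at 0 in any library. Of these markers Myh6 weighed most in the sum, at 35210 to 37630 CPM in HET and 32740 to 34210 CPM in WT. Relative to these markers, Asb2 was at 0.993% to 1.003% of their summed counts in HET and at 0.845% to 1.04% in WT, so on that scale the groups overlapped (log2 difference 0.09, p = 0.143 by an exact two-sided permutation test). The part of the markers in the Asb2 difference was not tested further. In bulk tissue a larger share of a cell type and more RNA per cell cannot be told apart.

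The Asb family to which Asb2 belongs, ankyrin-repeat proteins with a SOCS box that docks on cullin-RING ligases, had 8 more genes among the ligases looked at beside the members. Both lists were chosen with earlier results of these data known, and the Asb genes in them were not gathered as the whole family. Of these 9 Asb genes 7 were above 0 (median 0.16), 0 were called over all genes, 5 had an unadjusted p under 0.05 with the higher mean in HET (2.75% of all genes) and 4 had groups that did not overlap with HET higher (1.7% of all genes). Asb15 was at 86.5, 80.4, 100.1 and 91.5 CPM in HET and at 78.2, 75.5, 77.0 and 75.8 CPM in WT replicates 1 to 4 (log2 fold change 0.23, SE 0.0640). The WT libraries lay close together and HET replicate 3 was the highest. Asb14 was at 103.1 to 113.9 CPM in HET and 93.9 to 99.8 CPM in WT (0.16, SE 0.0475), and Asb11 at 135.0 to 160.9 and 125.1 to 131.8 CPM (0.16, SE 0.0606). The adjusted p was 0.770 for Asb15, Asb14 and Asb11 alike by edgeR. Asb18, a weakly expressed gene, was at 10.7 ± 1.38 and 9.09 ± 0.466 CPM (log2 fold change 0.24, interval 0.01 to 0.46) with overlap through HET replicate 2. Asb10 (0.08, interval -0.10 to 0.26), Asb8 (0.03, interval -0.07 to 0.13), Asb12 (-0.08, interval -0.25 to 0.09) and Asb5 (-0.09, interval -0.47 to 0.29) overlapped. Without HET replicate 3 the median of these 9 genes was 0.11 with 3 of 9 at an unadjusted p under 0.05, with library size as scaling it was 0.12 with 2 of 9, and without WT replicate 2 it was 0.14 with 3 of 9.

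**Figure D3:**
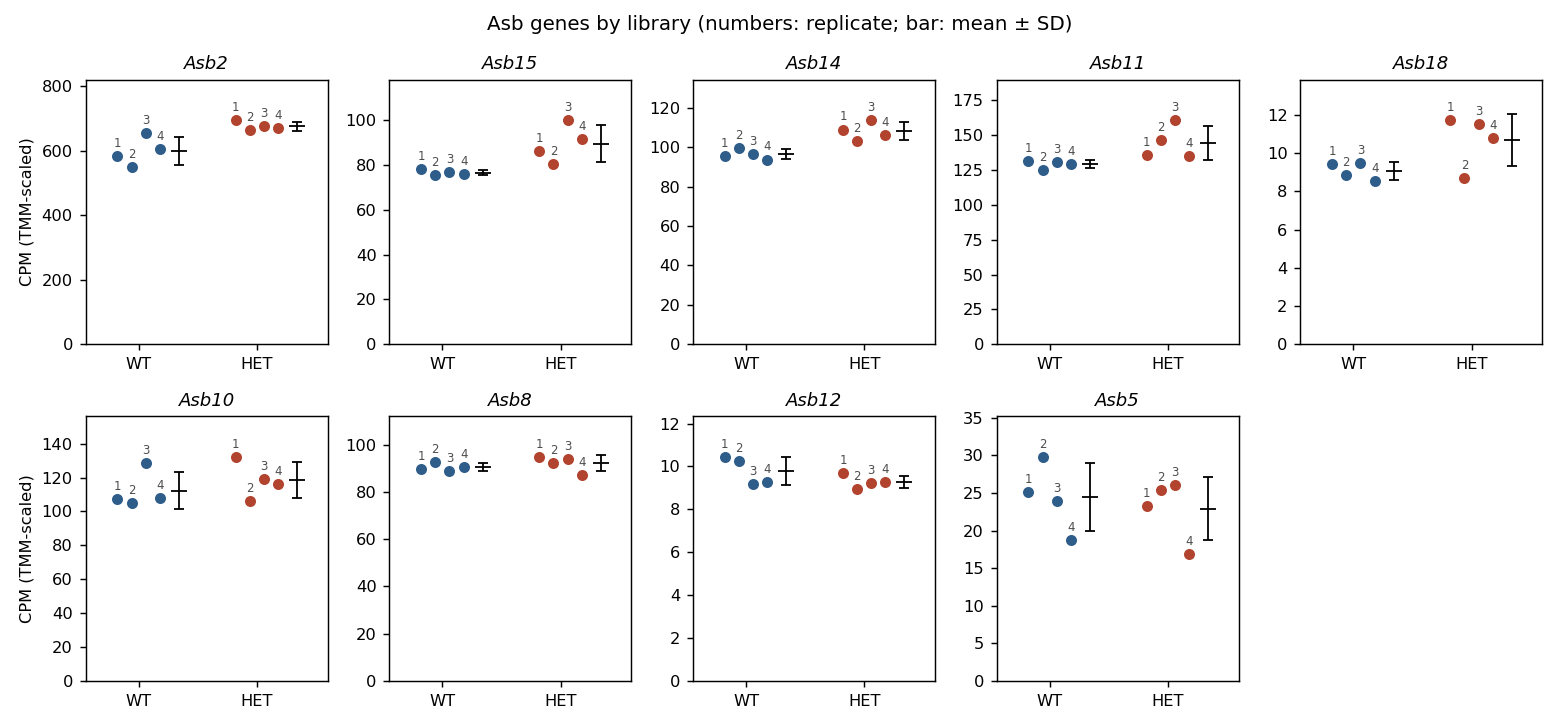
CPM of the 9 Asb genes in each library, WT in blue and HET in red, with replicate numbers and mean ± SD (n = 4); each axis starts at 0. Asb2, Asb15, Asb14 and Asb11 show HET points above all WT points, and the other 5 overlap.

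The MuRF group consists of Trim63, Trim54 and Trim55, related RING-finger proteins of the sarcomere that act in part on the same proteins. Trim63, whose known targets include troponin I and myosin heavy chain, was at 240.4, 246.6, 265.9 and 283.8 CPM in HET and at 249.9, 227.6, 239.3 and 240.8 CPM in WT. HET replicates 3 and 4 were above all WT libraries and HET replicates 1 and 2 were within their range. The log2 fold change was 0.11 (SE 0.0600, interval -0.02 to 0.25) with adjusted p = 0.770 by edgeR, and 0.07 without HET replicate 4.

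Trim55 (MuRF2), which binds titin and microtubules, was at 65.8, 61.5, 74.5 and 73.4 CPM in HET and at 69.0, 55.1, 62.5 and 56.6 CPM in WT. The groups overlapped through WT replicates 1 and 3 and HET replicates 1 and 2. Its log2 fold change was 0.18 (SE 0.0836, interval -0.01 to 0.36; adjusted p = 0.770 by edgeR). With 4 digits that some sample titles share, whose meaning the labels do not give, as covariate it was 0.05. Trim54 (MuRF3), a microtubule-binding member, was at 250.7, 234.3, 242.6 and 255.8 CPM in HET and at 261.1, 252.3, 213.0 and 212.5 CPM in WT. WT replicates 3 and 4 were low and WT replicates 1 and 2 lay within or above the HET range (log2 fold change 0.07, interval -0.10 to 0.23). Leaving out WT replicate 3 or 4 brought the value to 0.02. It was 0.13 if WT replicate 1 was dropped and 0.10 if replicate 2 was. WT replicates 3 and 4 share their title digits with HET replicate 2, the lowest HET library. With these digits as covariate the value was 0.03. Of its 1436 exon bases 382 are shared with an antisense gene, and the strand setting of the counting is not given in the sources used here.

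The proportions among the 3 MuRF transcripts differed little between the groups. Per exon length Trim54 made up 59.4% ± 1.55 of the 3 in HET and 60.3% ± 2.69 in WT, Trim63 31.6% ± 1.27 and 31.2% ± 2.21, and Trim55 8.97% ± 0.504 and 8.46% ± 0.722 (SD, n = 4 each). Within a library Trim63 was 3.34 to 3.75 times Trim55 in HET and 3.39 to 3.98 times in WT (p = 0.343 by an exact two-sided permutation test, 0.686 after adjustment over the 6 ratios tested). The ratio of Trim63 to Trim54 gave p = 0.800 by the same exact test (0.485 to 0.560 in HET, 0.456 to 0.573 in WT). With 4 against 4 the smallest p such a test can give is 0.0286. The shares and ratios themselves depend on the gene model. With the longest transcript as length the mean share of Trim54 was 51.2% in HET and 52.0% in WT. That of Trim63 was 40.9% and 40.5%, and that of Trim55 7.90% and 7.46%. The median ratio of Trim63 to Trim55 was then 5.29 in place of 3.60, and that of Trim63 to Trim54 0.817 in place of 0.543.

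Fbxo32 and Fbxo40 are F-box proteins, the substrate receptors of SCF ligases. Fbxo32, whose known targets include eIF3f and calcineurin, was at 187.1, 201.5, 219.8 and 192.9 CPM in HET and at 201.7, 168.2, 184.2 and 201.6 CPM in WT. HET replicate 3 was above every WT library, WT replicates 2 and 3 were below every HET library, and the other 5 libraries lay in the range that the groups share (log2 fold change 0.08, interval -0.07 to 0.24). Its value was 0.04 without HET replicate 3 and 0.03 without WT replicate 2. The ratio of Fbxo32 to Trim63 was 0.277 to 0.337 in HET and 0.301 to 0.341 in WT (p = 0.771, exact permutation test).

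Fbxo40 is a muscle F-box protein that acts on the insulin receptor substrate Irs1. It was at 372.5, 347.3, 369.3 and 378.7 CPM in HET, a narrow band, and at 375.6, 263.4, 364.9 and 305.8 CPM in WT. WT replicates 1 and 3 were at the HET level, and WT replicates 2 and 4 were lower. The log2 fold change of 0.16 (SE 0.101, interval -0.06 to 0.39; adjusted p = 0.772 by edgeR) was 0.07 without WT replicate 2 and 0.02 with the title digits as covariate. No other library has the title digits of WT replicate 2, so that covariate also takes it out of the comparison. Fbxo40 lies on chromosome 16, as Pkp2 does, 20.7 Mb away.

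Cbl, a ligase of receptor tyrosine kinases that is abundant in blood cells, was the member with the largest difference and the lowest level. It was at 1.113, 1.466, 1.199 and 1.038 CPM in HET and at 1.346, 1.434, 3.842 and 2.305 CPM in WT, from 42, 47, 45 and 37 counts in HET and 56, 57, 159 and 90 counts in WT. WT replicates 3 and 4 were high, and WT replicates 1 and 2 lay inside the HET range. WT replicates 3 and 4 share their title digits with HET replicate 2, the highest HET library. The spread in HET, a coefficient of variation of 15.5%, was near the 15.3% that counting alone gives at these counts, while in WT it was 51.9% against 10.5%. The log2 fold change was -0.89 (SE 0.327, interval -1.62 to -0.17) with adjusted p = 0.770 by edgeR. It was -0.50 without WT replicate 3 and -0.65 with the title digits as covariate. The adjusted p ran from 0.563 to 0.994 over the alternatives (edgeR, DESeq2 or limma-voom).

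WT replicate 3 also held the most RNA of immune genes. The summed level of 20 interferon genes was 1193 CPM in it and 183.4 to 274.7 CPM in the other 7 libraries, and all 20 had a negative log2 fold change (median -0.72; Mx1, an antiviral GTPase, -1.29). The 6 macrophage markers summed to 291.4 CPM in it, against 185.7 to 211.2 CPM in HET and 192.5 to 207.3 CPM in the other WT libraries, and all 6 were negative (median -0.14). Lymphocyte markers, 6 in all, summed to 2.83 CPM in it and to 1.33 to 1.92 CPM elsewhere, with Cd3g at 0 counts in WT replicate 2. Without WT replicate 3 the median log2 fold change was -0.09 for the interferon genes and 0.01 for the macrophage markers, and that of Mx1 was -0.60. Their part in the Cbl difference was not tested. WT replicate 4, the next highest for Cbl, had a macrophage sum (207.3 CPM) inside the HET range and the lowest interferon sum of the WT libraries (236.3 CPM).

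Cblb, the closest relative of Cbl, was expressed more strongly and had its higher mean in HET. It was at 16.6, 23.3, 17.6 and 21.9 CPM in HET and at 16.0, 17.1, 22.1 and 14.8 CPM in WT (log2 fold change 0.18, interval -0.15 to 0.51). Its value was 0.31 if WT replicate 3 was dropped, 0.11 if WT replicate 4 was and 0.10 if HET replicate 2 was. Per exon length Cbl was 0.0403 to 0.0578 of Cblb in HET and 0.0712 to 0.147 in WT, so that the ratio did not overlap between groups. The mean log2 ratio was lower in HET by a difference of -0.95, with p = 0.0286 by an exact two-sided permutation test, the smallest this design can give, and an adjusted p of 0.172 over the 6 ratios, which does not pass. Without WT replicate 3 the difference was -0.77. Cblc, the third gene of the family, was at 0.532 ± 0.180 and 0.651 ± 0.179 CPM.

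Mdm2 ubiquitinates p53 and is itself switched on by it. It varied least of the 10, at 55.5, 58.7, 61.7 and 58.4 CPM in HET and at 56.4, 57.9, 58.8 and 55.2 CPM in WT. The groups overlapped throughout (log2 fold change 0.04, interval -0.07 to 0.14), and with library size as scaling the value was -0.01. Mdm4, its partner in restraining p53, had -0.22 (interval -0.55 to 0.10), with WT replicate 3 at 15.5 CPM and the other 7 libraries at 8.69 to 11.2 CPM, and -0.05 without that library. The ratio of Mdm2 to Mdm4 per exon length was 15.3 to 18.6 in HET. In WT it was 15.8 to 16.0 in 3 libraries and 11.02 in replicate 3 (p = 0.143, exact permutation test).

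Among 16 p53 targets 8 were positive (median -0.01), and 0 were called. Trp53, the gene of p53, was at 23.2 to 24.5 CPM in HET and 25.1 to 26.3 CPM in WT (edgeR log2 fold change -0.12 with adjusted p = 0.770). The polo-like kinase Plk2 had -0.48 (adjusted p = 0.114 by edgeR, and 2.22e-06 with DESeq2). Its levels did not overlap, at 31.7 to 37.2 CPM in HET and 43.9 to 50.8 CPM in WT. Sesn1, a stress-induced sestrin, and Ccng1, cyclin G1, had the opposite sign (0.19 and 0.16, with 137.8 to 147.2 against 116.3 to 128.5 CPM and 887.6 to 1008 against 793.3 to 870.0 CPM). The signs of these targets thus differed.

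Nedd4l and Rnf207 are the members tied to cardiac ion channels. Nedd4l, a HECT ligase that acts on the potassium channel Kcnq1, was at 35.2, 38.9, 37.1 and 39.5 CPM in HET and at 34.1, 40.8, 38.2 and 32.7 CPM in WT. The ranges of HET lay inside those of WT (log2 fold change 0.05, interval -0.12 to 0.21, and 0.00 without WT replicate 4). Its relative Nedd4, a gene with far more RNA, was at 549 ± 20.8 and 519 ± 29.9 CPM (0.08, interval -0.04 to 0.20). The ratio of Nedd4l to Nedd4 per exon length was 0.0400 to 0.0458 in HET and 0.0391 to 0.05003 in WT (p = 0.800, exact permutation test).

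Rnf207, a RING protein that acts on the potassium channel Kcnh2, was at 142.1, 136.2, 139.9 and 138.0 CPM in HET. In WT it was at 135.8, 180.1, 124.2 and 141.2 CPM, with replicate 2 far above and replicate 3 below the rest. The HET libraries spread by 1.82%, close to the 1.42% of counting alone, and the WT libraries by 16.7%. The log2 fold change was -0.06 (interval -0.28 to 0.16), and it changed sign without WT replicate 2 (0.06) and with the title digits as covariate (0.04). WT replicate 2 is the only library with its title digits, so that covariate also takes it out of the comparison. These settings are thus not wholly separate checks. Rnf207 shares 103 of its 6331 exon bases with Icmt on the opposite strand.

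**Figure D4:**
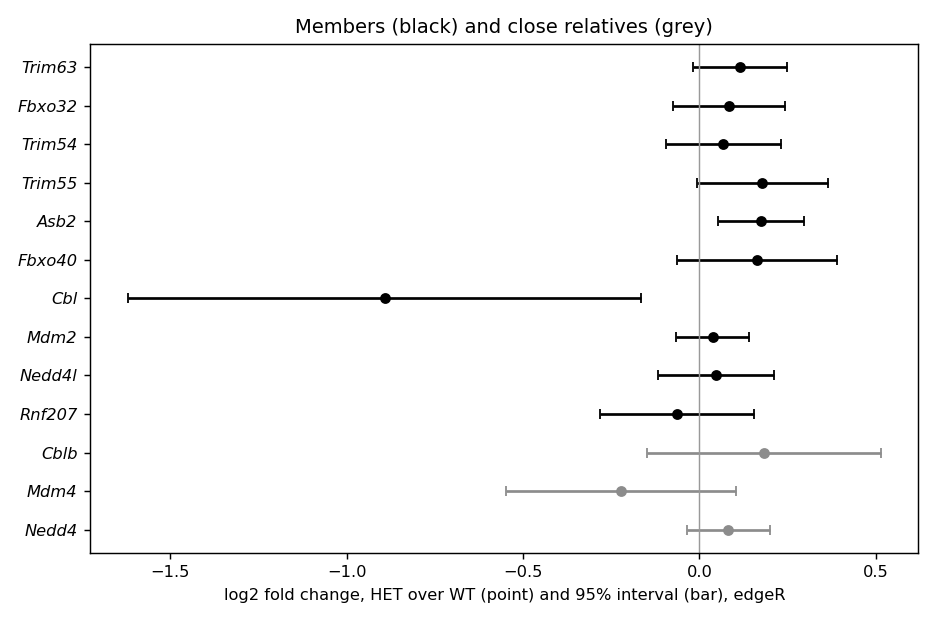
Log2 fold change, HET over WT, of the 10 members (black) and of Cblb, Mdm4 and Nedd4 (grey), with 95% intervals from edgeR. The intervals of Asb2 (0.05 to 0.30) and Cbl (-1.62 to -0.17) leave out 0, and the other 8 members' intervals hold it.

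Single libraries stood apart for several members. WT replicate 2 was the lowest of the 8 for Trim63, Fbxo32, Trim55, Asb2 and Fbxo40 and the highest for Nedd4l and Rnf207, so it was at an end for 7 of the 10 members, while it is at an end for 31.6% of all genes tested. HET replicate 3 was the highest for Fbxo32, Trim55 and Mdm2. The SD of log2 CPM was larger in WT than in HET for 8 of 10 members, against 58.9% of all genes tested. The members' median SD was 0.0694 in HET and 0.147 in WT, where that of all genes tested was 0.116 and 0.135. Without WT replicate 2 the SD was larger in WT for 7 of 10 members (median SD 0.105 in WT), against 54.8% of all genes. Without WT replicate 3 it was larger for 8 of 10 (median SD 0.164 in WT), against 51.3% of all genes. The title digits are split unevenly between the groups. One value holds 3 HET and 1 WT libraries, another 1 and 2, and the last WT replicate 2 alone. The part of these digits in the spread was not tested.

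**Figure D5:**
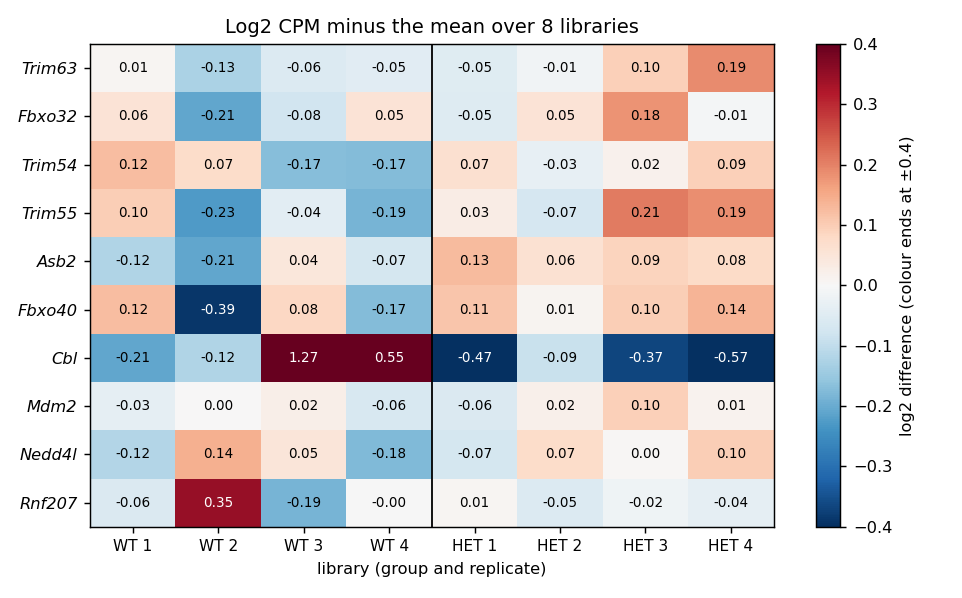
Log2 CPM of each member minus its mean over the 8 libraries, WT left of the line and HET right of it; red is above and blue below the mean, and the colour scale ends at ±0.4. WT replicate 2 is at an end of the range for 7 of the 10 genes, and Cbl departs most from its mean in WT replicate 3.

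Over the 45 pairs of members, with log2 CPM in 8 libraries and exact permutation p-values, 25 correlations were positive. After adjustment 1 pair passed by Pearson's r and none by the rank correlation rho (smallest adjusted p = 0.481, permutation test). Trim55 and Fbxo40 had r = 0.844 (permutation p = 7.19e-04, adjusted p = 0.0324) and rho = 0.857 (permutation p = 0.0107, adjusted p = 0.481), and without HET replicate 3 and WT replicate 2, the libraries farthest from the median of Trim55, r was 0.880. Trim63 and Trim55 had r = 0.851 (permutation p = 0.00511, adjusted p = 0.115), rho = 0.786 (permutation p = 0.0279, adjusted p = 0.518) and r = 0.742 without HET replicates 3 and 4. The pair best known for rising together, Trim63 and Fbxo32, had r = 0.572 (permutation p = 0.144, adjusted p = 0.589), rho = 0.738 (permutation p = 0.0458, adjusted p = 0.518) and r = 0.914 without the same libraries. Within a genotype there are 4 libraries, too few for a correlation. The permutation also ignores the title digits, which HET replicates 1, 3 and 4 and WT replicate 1 share. These libraries lay above all others for Trim55 (65.8 to 74.5 against 55.1 to 62.5 CPM). The same held for Fbxo40 (369.3 to 378.7 against 263.4 to 364.9 CPM). The part of the digits in this correlation was not tested.

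For other pairs r moved when the 2 libraries farthest from the median were left out. Fbxo40 and Rnf207 had r = -0.818 (permutation p = 0.0441, adjusted p = 0.397) and rho = -0.381 (permutation p = 0.360, adjusted p = 0.810), and r was 0.235 without WT replicates 2 and 4. Trim54 and Cbl had r = -0.865 (permutation p = 0.0095, adjusted p = 0.142) and rho = -0.714 (permutation p = 0.0576, adjusted p = 0.518). Without WT replicates 3 and 4 their r was -0.334. These libraries and HET replicate 2, which share their title digits, lay below all others for Trim54 and above all others for Cbl. Asb2 and Fbxo40 had r = 0.747 (permutation p = 0.0332, adjusted p = 0.373) and rho = 0.500 (permutation p = 0.216, adjusted p = 0.648), with r = 0.914 without WT replicates 1 and 2.

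The genes most like each member were sought among the genes with a mean of at least 10 CPM, by Pearson's r of log2 CPM over the same 8 libraries, as a description without a test. Each r is a top value out of 8473 genes searched (8474 for Cbl). How high an r such a search gives for unrelated genes was not tested, so these values show no link between genes. Fbxo40 was nearest to Mapk8ip3, a kinesin adaptor (r = 0.993), Nfil3, a transcription factor with a daily rhythm (0.982), and Snx19 (0.981). Nfil3 was at 6.74 CPM in WT replicate 2 and at 11.04 to 18.1 CPM in the other 7 libraries, so the library that was low for Fbxo40 was low for it too. Trim55 was nearest to Arid5b (0.987), Pacsin2 (0.983) and Lzic (0.983), and Asb2 to Lyrm9 (0.986), Ensa (0.981) and Mfn1, a mitofusin (0.950). Rnf207 was nearest to Timp3, a metalloproteinase inhibitor (0.963), Tspan4 (0.951) and Eif3j1 (0.950), and Timp3 was highest in WT replicate 2 (265.4 CPM against 171.0 to 211.3 CPM).

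Cbl was nearest to Zzef1 (0.976), Cotl1, an actin-binding protein (0.968), and Bcap31 (0.962). Cotl1 was at 21.5 CPM in WT replicate 3, at 14.6 CPM in WT replicate 4 and at 11.6 to 13.2 CPM in the other 6. For Trim54 the nearest were mt-Nd5, a mitochondrially encoded subunit of complex I (0.952), Anp32e (0.934) and Kitl (0.931). mt-Nd5 was at 14620 and 15600 CPM in WT replicates 3 and 4 and at 17440 to 19880 CPM in the other libraries. Trim63 had Pdzd2 (0.960), Mark2 (0.951) and Adgrg1 (0.950), Fbxo32 had Khnyn (0.979), Mtrr (0.979) and Vps36 (0.969), Mdm2 had Atp13a1 (0.965), Ttll1 (0.962) and Sart3 (0.945), and Nedd4l had Lrrk2 (0.933), Podxl2 (0.927) and Chd1 (0.920).

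Around the ligases, the rest of the ubiquitin system gave no call over all genes in any list. Of 32 E1 and E2 enzymes 19 were positive (median 0.01), and Ube2g2 (0.08) and Ube2a (0.10), both E2 enzymes, had groups that did not overlap with HET higher (1.7% of all genes). Of 12 cullin-RING subunits 8 were positive (median 0.03). Cul3, a cullin scaffold, was at 128.9 to 139.4 CPM in HET and at 116.6 to 128.4 CPM in WT (0.12, SE 0.0487). With library size as scaling the medians of the E1 and E2 and the cullin lists were -0.03 and -0.01.

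Of 45 other ligases of heart and muscle 28 were positive (median 0.04), 5 had an unadjusted p under 0.05 with HET higher (2.75% of all genes) and 0 with HET lower (3.63% of all genes). Apart from the Asb genes this was Mul1, a ligase of the outer mitochondrial membrane, at 70.2 to 72.5 CPM in HET and 64.7 to 66.1 CPM in WT (0.13, SE 0.0398, adjusted p = 0.770 by edgeR). Of 29 deubiquitinases, the enzymes that remove the tag, 21 were positive (median 0.04), with Usp15 at 77.2 ± 3.07 and 69.3 ± 4.14 CPM (0.16, SE 0.0547). With library size as scaling both medians were -0.00.

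Of 19 genes of proteins that the members are known to act on, 9 were positive (median -0.00). Myh6, the adult cardiac myosin and a MuRF target, was at 35210 to 37630 CPM in HET and 32740 to 34210 CPM in WT (0.12, SE 0.0397, adjusted p = 0.770 by edgeR). Flna, a filamin targeted by Asb2, was at 221.3 to 237.2 CPM in HET and 236.1 to 265.1 CPM in WT (-0.12, SE 0.0499). RNA levels say nothing of the protein amounts that these ligases set.

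Of 16 tested regulators of the atrophy ligases 14 were positive (median 0.08). Cebpd, a transcription factor induced by glucocorticoids, was at 15.6, 13.6, 23.2 and 18.2 CPM in HET and at 11.15, 10.01, 12.54 and 11.65 CPM in WT. The groups did not overlap (edgeR log2 fold change 0.64 ± 0.151 SE with adjusted p = 0.770), and DESeq2 called it at an adjusted p of 0.0437. Klf15 and Foxo1, chosen after their values were seen because both are known to act on the Trim63 or Fbxo32 promoter, had 0.21 (interval -0.05 to 0.48) and 0.01 (interval -0.14 to 0.16). Mstn, myostatin, did not pass the filter on low counts.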

How the data were processed

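The deposited values are raw read counts per Ensembl gene, whole numbers made by the authors. Per the submitters' processing notes STAR 2.4.2a, HTSeq 0.6.1 and GRCm38/mm10 were used, and per the labels' protocols a stranded poly(A) kit. The annotation release and strand setting are not given in the sources used here. Groups follow the genotype label, and replicates are numbered in deposition order. Symbols were matched by Ensembl identifier (36345 of 38293 genes). Positions and lengths came from GENCODE M21 (GRCm38).

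Counts were filtered with filterByExpr, scaled by TMM and compared with edgeR 4.0.16 (R 4.3.3), quasi-likelihood test, robust, no covariate, Benjamini-Hochberg adjustment at 0.05, and this fit was tested on simulated data. Correlations use log2 CPM with a prior count of 2. Ratios were compared by exact permutation over 70 splits. The alternatives were RLE or library-size scaling, no filter or 1 CPM in 4 samples, DESeq2 1.42.0, limma-voom (limma 3.58.1), the title digits as covariate and each library left out. The labels do not say what the title digits mark. The members and lists were chosen with earlier results of these data known. Named are Pkp2, the members, the Cbl, Mdm4, Nedd4 and Asb relatives, in each list up to 4 genes with an unadjusted p under 0.05 or otherwise the 2 of smallest p, and the 3 nearest genes of each member. Some genes of these lists are not reported here. Lists of cell type markers are given only where their sums stand beside a result.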

Additional observations from a re-analysis of the deposited data

Results flagged for a closer look

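In 32 groups of 4 libraries (10 members and 6 ratios in each genotype) 1 library lay far from the other 3 by Dixon's criterion, which flags about 1 in 20 groups by chance. The ratio of Mdm2 to Mdm4 per exon length of WT replicate 3 was 11.02, and the remaining 3 WT libraries lay at 15.8 to 16.0.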

How the results depend on the processing

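The number of genes called by edgeR was 0 higher and 1 lower. It was 7 higher and 6 lower with DESeq2 and 2 lower without the filter on low counts. Leaving out 1 library gave 0 higher and 1 to 3 lower, with 3 without HET replicate 3. No member was called under any of the 15 alternatives, and Asb2, Cbl, Trim63, Trim55, Trim54, Fbxo32, Fbxo40 and Nedd4l kept their sign in all of them. Mdm2 turned to -0.00534 with library-size scaling and Rnf207 to 0.0407 with the title digits as covariate. With 1 library left out Rnf207 ran from -0.134 to 0.0565 (without WT replicate 2) and Asb5 from -0.197 to 0.0335 (without HET replicate 4), and Asb5 was 0.0193 if WT replicate 2 was dropped. Asb5 turned to 0.0173 with the title digits and Asb8 to -0.0169 with library-size scaling. Plk2 passed with DESeq2, without the filter (adjusted p = 0.0146 by edgeR) and without HET replicate 3 (0.0385). The log2 ratio differences, with 1 library left out, ran as follows for those that changed sign. Trim63 to Trim54 (0.04) ran from -0.0215 (without WT replicate 2) to 0.0882. Fbxo32 to Trim63 (-0.03) ran from -0.0586 to 0.0356 (without HET replicate 4) and was 0.00315 if WT replicate 4 was dropped. Nedd4l to Nedd4 (-0.03) ran from -0.0822 to 0.0368 (without WT replicate 2). The cause of these changes was not tested. No paired analysis was possible because the replicate numbers only follow the order of deposition. The title digits are not pairs either (one value holds 3 HET and 1 WT libraries, another 1 and 2, and the last WT replicate 2 alone). With them as covariate 0 genes were called higher and 1 lower. That covariate takes WT replicate 2 out of the comparison and also adjusts for the unequal split of the other digits. It thus overlaps only in part with leaving this library out. Trim55 was 0.05 with the covariate and 0.13 without WT replicate 2, and Cbl was -0.65 and -1.05. Cbl, with 37 to 159 counts a library, is the member that depth limits most.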
